A study of Mus musculus with 28 samples.

Results

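Levels of 41 genes of the cell division cycle were followed in cells sorted from mouse lung. The genes were listed by name, and all 41 were found among the 19375 genes listed in all 28 libraries. They comprised 26 mitosis genes, 10 DNA replication genes (Mcm2 to Mcm7, Pcna, Tyms, Rrm1 and Rrm2) and 5 other genes (Tk1, Ccne1, Ccne2, Cdc6 and Stmn1). The mice were wild-type C57BL/6 animals aged 8 weeks, and flow cytometry separated 4 populations, labelled as alveolar epithelial cells of type 1 (AEC1) and type 2 (AEC2), basophils, and ILC2, the lymphoid cells of the innate type 2 response. Each came from untreated mice, from mice given papain, or from mice given papain and FK506. Papain, a plant protease used to provoke allergic lung inflammation, was given into the nose at 50 µg per day. FK506 (tacrolimus), an inhibitor of the phosphatase calcineurin, was given by the intraperitoneal route, 0.2 mg daily, in courses of 3 days set 2 days apart, the later one together with papain. There were 2 libraries per treatment for AEC1 and for AEC2 and 3 for ILC2. Basophils had 3 libraries with papain, 3 with papain and FK506, and 1 untreated library whose title names controls 1 and 2. Nothing in the labels says which libraries came from separate animals, so a p-value measures only the spread between these libraries. Levels are given in CPM, the reads of a gene scaled to the library's total, from libraries that read the 3' ends of transcripts and were made from 10 ng of RNA.

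A cell that divides copies its DNA in S phase and separates the copies in mitosis. The Mcm proteins form the helicase that opens the DNA, Pcna is the clamp that holds the polymerase to it, and Tyms, Rrm1, Rrm2 and Tk1 make its nucleotide building blocks. Mitosis is driven by Cdk1 with cyclins A and B and by the kinases Plk1, Aurka and Aurkb. It ends when the anaphase-promoting complex, with Cdc20 and Ube2c, marks the cyclins for destruction. Most cells of a resting lung are outside the cycle, and type 2 cells, lymphoid cells and stromal cells can enter it after injury or stimulation.

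The libraries had features that touch every result here. Untreated replicate 2 and papain replicate 2 of AEC2, which carry different labels, held nearly the same values. Over 4500 genes at 20 CPM or more in either, their log2(CPM + 2) values correlated at r = 0.95, and 99.5% of these genes were above 0 in both. The highest r among the other 377 pairs of libraries was 0.46. On reads recovered from the CPM values, the median chi-square per gene was 0.0937 for this pair, below the 0.455 that sampling alone gives, and at least 30.7 for the other AEC2 pairs tested. They were not identical: 189 of 5551 genes differed beyond the 0.1% point, and Pcna stood at 53.1 CPM in one and at 0 in the other. Which label is right for the shared values cannot be told from the files. The sums, main tests, counts and lists of AEC2 are therefore given with both libraries and without both. Tests on recovered reads were run with both only, and levels of single genes are given for all 6.

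**Figure D1:**
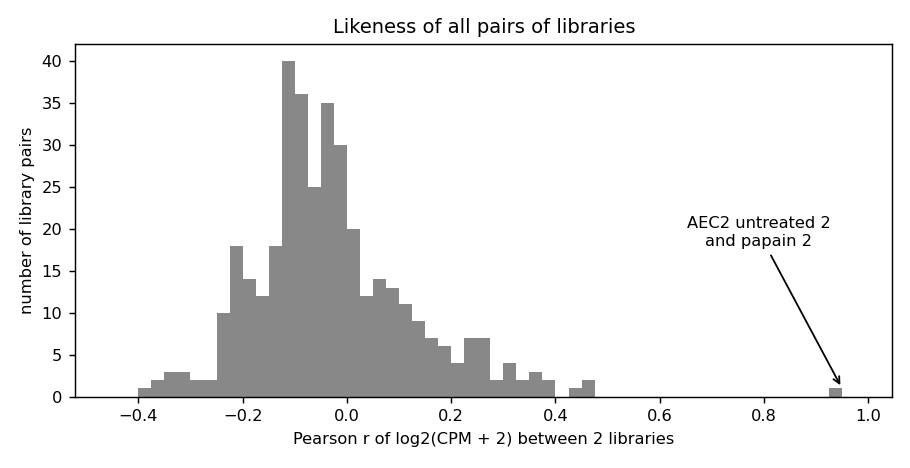
Histogram of Pearson r of log2(CPM + 2) for all 378 pairs of the 28 libraries, over genes at 20 CPM or more in either library of a pair. AEC2 untreated 2 and papain 2 stand alone at 0.95, and the next pair lies at 0.46.

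Values of 0 were common. Of genes at 20 to 100 CPM in 1 library, 22.5 to 33.8% were listed at 0 in the other library of the same AEC1 group, 23.9 to 49.9% in AEC2, 10.2 to 62.4% in ILC2 and 17.1 to 31.7% in basophils. Gapdh, which every cell uses, was itself at 0 in most libraries, so a value of 0 is read as the listed value and nothing more, and folds against such groups are left out. A fitted log2 difference from a group at 0, wherever one is given below, depends on the 2 CPM added before taking logs and is no fold. AEC1 libraries had 6334 to 7334 genes above 0, AEC2 libraries 4441 to 6507, ILC2 libraries 3134 to 7240 and basophil libraries 2002 to 7894. The recovered depth was 847777 to 975457 reads in AEC1 and 1206895 to 1336078 in 5 AEC2 libraries, so that 1 read was worth about 1 CPM. On these reads the median chi-square per gene was 21.2 to 28.8 for pairs of AEC1 libraries, so their spread was wider than the counting error. The listed values summed to 519768 to 636598 in ILC2 and 612434 to 672357 in basophils, against 986819 to 992527 in AEC libraries, so CPM levels of different cell types are not on 1 scale. Defining markers matched the label in AEC2 (Sftpc, 32887.2 to 61276 CPM). The AEC1 libraries held little of the type 1 marker Ager (37.1 to 114.4 CPM), which stood at 1384 to 3505.7 CPM in AEC2. Ager is 1 of 10 type 1 markers and made up most of their sum in AEC2 but not in AEC1. All 10 summed to 827.3 to 1121.4 CPM in AEC1, with 2 to 5 of them at 0. In AEC2 they summed to 1830 to 4275.4 CPM, with 4 to 6 at 0. The AEC1 libraries also held 6095 to 15766 CPM of 11 fibroblast markers and 1546 to 4956 CPM of 5 markers of mesothelium. In the basophil libraries Mcpt8 and Fcer1a were listed at 0 in all 7, as in all 28 libraries. There 13 basophil and mast cell markers summed to 0 to 293.9 CPM and 18 macrophage markers to 3720 to 14554 CPM. In bulk samples, fewer cells of a type and less RNA per cell cannot be told apart.

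Promoter letters of the mitosis and replication genes are shown first, because the results are ordered by these classes. RefSeq promoter windows (GRCm38.p6, 250 bases before to 50 after a gene's start) were matched for 34 of the 41 genes. The cell cycle homology region, bound by the DREAM and B-MYB complexes, was searched in its common form TTTGAA and in the variant of its centre, which is spelled TTCGAA. The letters bound by NF-Y (CCAAT) and E2F letters (TTTGGCGC, TTTCCCGC, TTTGGCGG, TTTCGCGC or TTTCCCGG) were searched as well, all on both strands. The homology region was found in 18 of 22 mitosis genes (81.8%), in 2 of 9 replication genes (22.2%) and in 21.7% of 27025 genes. CCAAT was found in 20 of 22 mitosis genes, in 8 of 9 replication genes and in 41.1% of all genes. E2F letters were found in 2 of 22 mitosis genes (Birc5 and Cdk1), in 4 of 9 replication genes (44.4%; Mcm3, Mcm5, Mcm6 and Mcm7) and in 4.10% of all genes. The E2F letters can overlap one another on opposite strands, as in the first run of capitals of Mcm6. A match is a run of letters and was not measured as a site.

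**Figure D2:**
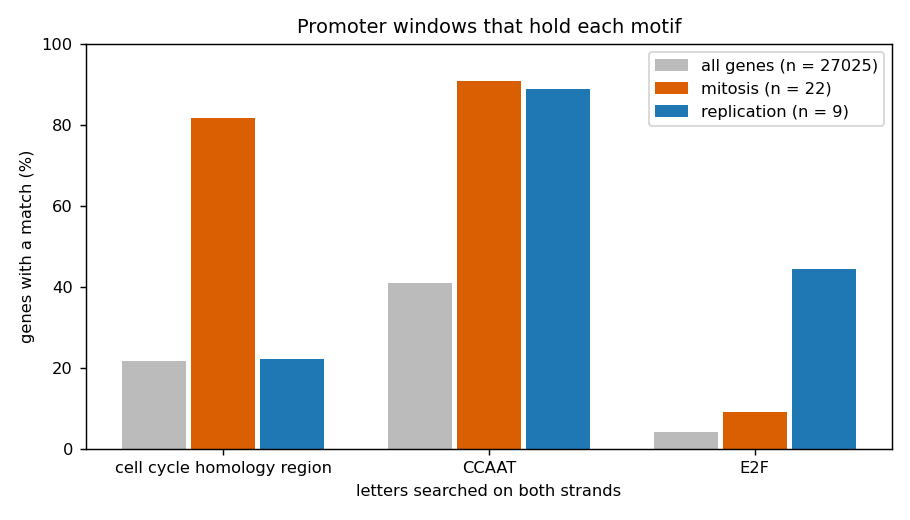
Share of genes with at least 1 match in the promoter window, in percent, for all 27025 genes, 22 mitosis genes and 9 replication genes. The cell cycle homology region stands at 81.8% in mitosis genes against 22.2% in replication genes, and E2F letters at 44.4% in replication genes against 9.09% in mitosis genes.

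The 120 bases before the start are shown 5' to 3' for 5 mitosis genes and 2 replication genes described further on, with matches in capitals. The mitosis genes are Top2a (chr11:99024190-99024309, minus strand), Cdk1 (chr10:69352913-69353032, minus), Ube2c (chr2:164769809-164769928, plus), Prc1 (chr7:80294356-80294475, plus) and Cdc20 (chr4:118437344-118437463, minus). The replication genes are Mcm3 (chr1:20820313-20820432, minus) and Mcm6 (chr1:128359706-128359825, minus).
Top2a: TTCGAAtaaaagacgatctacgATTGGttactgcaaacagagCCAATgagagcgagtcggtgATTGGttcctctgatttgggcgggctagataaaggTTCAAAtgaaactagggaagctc
Cdk1: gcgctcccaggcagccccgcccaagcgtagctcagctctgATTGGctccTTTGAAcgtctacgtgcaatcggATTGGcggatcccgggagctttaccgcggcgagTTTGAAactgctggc
Ube2c: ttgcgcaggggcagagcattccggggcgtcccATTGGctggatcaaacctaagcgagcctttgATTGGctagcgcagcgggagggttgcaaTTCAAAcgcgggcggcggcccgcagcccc
Prc1: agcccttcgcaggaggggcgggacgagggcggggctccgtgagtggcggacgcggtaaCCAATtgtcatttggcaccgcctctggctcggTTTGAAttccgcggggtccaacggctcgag
Cdc20: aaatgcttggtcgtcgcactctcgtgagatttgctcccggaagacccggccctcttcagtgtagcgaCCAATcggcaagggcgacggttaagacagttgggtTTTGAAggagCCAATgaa
Mcm3: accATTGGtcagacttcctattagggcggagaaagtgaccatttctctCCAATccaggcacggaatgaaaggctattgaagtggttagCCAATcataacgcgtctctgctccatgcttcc
Mcm6: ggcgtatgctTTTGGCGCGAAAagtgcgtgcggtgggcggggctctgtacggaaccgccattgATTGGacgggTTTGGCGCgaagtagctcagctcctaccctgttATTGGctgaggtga
Each of the 5 mitosis genes shows the homology region (read as TTCAAA where it lies on the other strand) together with the NF-Y letters (read as ATTGG on the other strand). Mcm6 shows E2F letters with NF-Y letters, and Mcm3 shows NF-Y letters alone in this stretch.

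The largest contrast in summed level lay in the epithelial sorts. In AEC1 the 26 mitosis genes summed to 113.3 and 115.1 CPM in untreated libraries, to 1828.5 and 901.4 CPM with papain, and to 2161.2 and 1118.2 CPM with papain and FK506. Both treated groups stood wholly above untreated, at 11.95 and 14.36 times its mean, and overlapped each other. The 10 replication genes summed to 219.9 and 108.1 CPM, to 347.3 and 376.3 CPM, and to 383.8 and 550.7 CPM, which is 2.21 and 2.85 times the untreated mean. Summed levels carry no test.

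**Figure D3:**
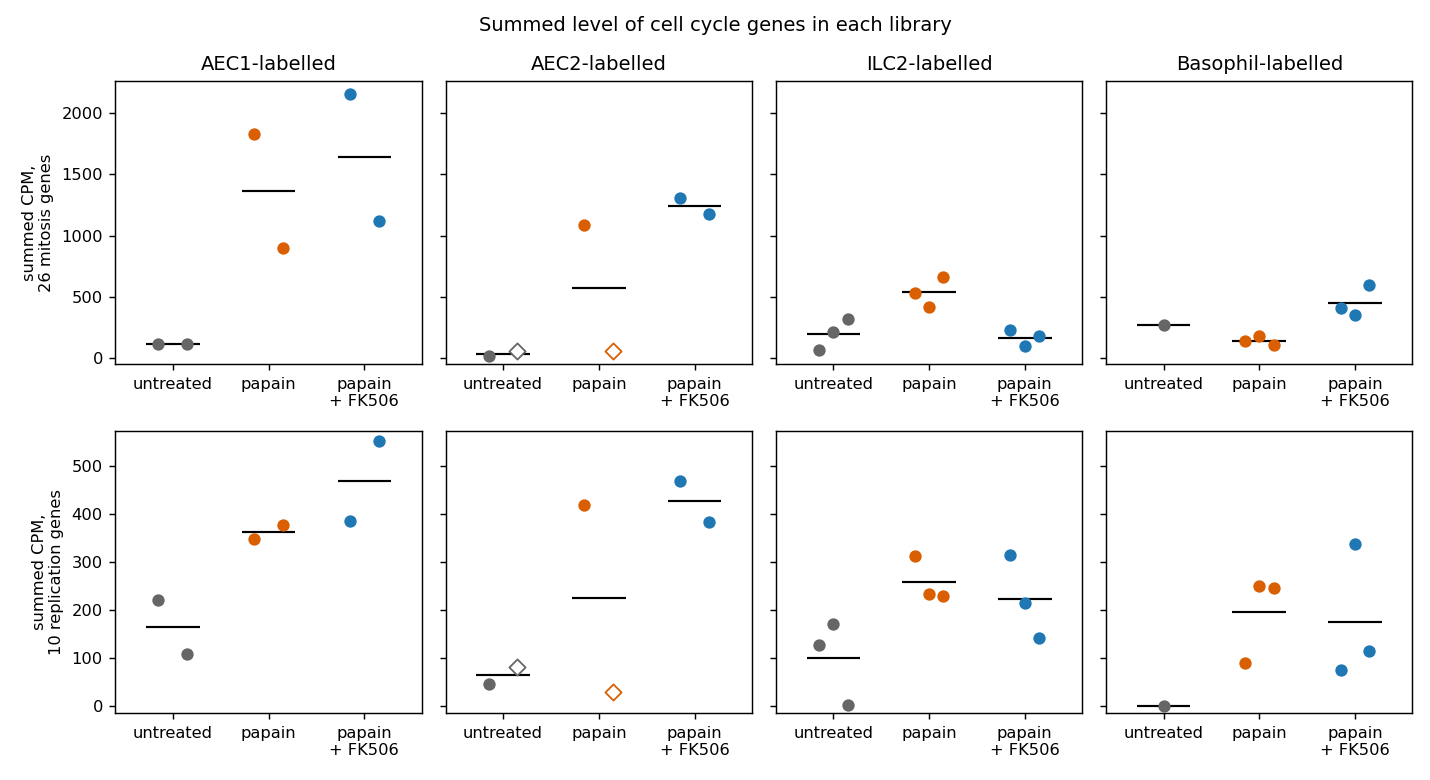
Summed CPM of 26 mitosis genes (top) and 10 replication genes (bottom) in each library, by label and treatment. Points are libraries, lines are group means, and open diamonds mark the 2 AEC2 libraries with nearly the same values; mitosis sums of treated AEC1 libraries lie between 901.4 and 2161.2 CPM against 113.3 and 115.1 CPM in untreated ones.

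In AEC1, 9 and 9 of the 41 genes were above 0 in untreated libraries, 28 and 29 with papain, and 34 and 32 with papain and FK506. In untreated AEC1, 26 of the 41 were listed at 0 in both libraries. Of all listed genes, 6334 and 6488 were above 0 in untreated libraries, 7301 and 6844 with papain, and 7334 and 7276 with FK506 as well. Fibroblast markers summed to 8220 and 6095 CPM in untreated libraries, to 15766 and 6397 CPM with papain and to 14903 and 10146 CPM with FK506 as well. Mesothelial markers went the other way, from 4956 and 4166 CPM to 2261 and 3411 CPM and then 1546 and 1985 CPM, and so did AEC2 markers, from 6305 and 9717 CPM to 2350 and 1492 CPM and then 1962 and 4475 CPM. For both of these sets all treated libraries lay below the untreated ones. The part of these shifts in the results was not tested.

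Values per library come first for the genes that run mitosis. Prc1, which bundles the spindle midzone, was at 0 and 0 CPM in untreated AEC1, then 188.5 and 223.5 CPM with papain, then 82.9 and 222.9 CPM with papain and FK506. Birc5 (survivin, of the chromosomal passenger complex) was at 0 and 0 CPM, then 132.4 and 34.9 CPM, then 204.2 and 140.4 CPM. Cdk1 was at 0 and 0 CPM, then 83.6 and 82 CPM, then 59.5 and 3.5 CPM. In all 3 genes the treated libraries lay wholly above the untreated ones.

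Ube2c, the E2 enzyme of the anaphase-promoting complex, was at 0 and 0 CPM, then 95.3 and 3.1 CPM, then 301.1 and 33 CPM. Plk1 was at 0 and 0 CPM, then 155.6 and 19.5 CPM, then 158.7 and 7.1 CPM. Top2a, the topoisomerase that untangles sister DNA, was at 56.1 and 41.4 CPM, then 312.4 and 54.3 CPM, then 190.2 and 159.2 CPM. Ube2c and Plk1 did not overlap with untreated in either treatment, whereas Top2a with papain overlapped it and with FK506 as well did not.

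The proliferation marker Mki67 stood at 14.6 and 0 CPM, then 61.4 and 18.5 CPM, then 54.8 and 37.7 CPM. Aurkb, the kinase of the passenger complex, was at 0 and 0 CPM, then 36 and 0 CPM, then 35 and 11.8 CPM. Ccnb1 (cyclin B1), though a partner of Cdk1, was listed at 0 in 5 of the 6 AEC1 libraries and at 49.8 CPM in papain replicate 1. Mki67 separated both treatments from untreated and Aurkb only papain with FK506. The remaining mitosis genes ran from 0 to 266.8 CPM in AEC1.

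Replication genes were less separated. Mcm3 was at 31.4 and 4.6 CPM, then 43.4 and 82 CPM, then 65.3 and 68.4 CPM, and the treated groups lay above untreated. Mcm6 was at 61.7 and 0 CPM, then 49.8 and 27.7 CPM, then 47.8 and 126.2 CPM, and overlapped. Mcm5 (0 and 0 CPM, then 75.2 and 0 CPM, then 0 and 33 CPM) and Pcna (37 and 0 CPM, then 61.4 and 0 CPM, then 37.3 and 49.5 CPM) overlapped between untreated and papain. Mcm2 was at 0 in 5 of the 6 libraries and at 2.1 CPM in papain replicate 2.

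Of the nucleotide genes, Tyms was at 0 and 46 CPM, then 0 and 2.1 CPM, then 0 and 15.3 CPM. Rrm2 was at 0 and 0 CPM, then 0 and 28.7 CPM, then 24.5 and 18.9 CPM, and Tk1 at 67.3 and 50.6 CPM, then 92.1 and 0 CPM, then 60.7 and 110.9 CPM. Tyms and Tk1 overlapped in every comparison. Ccne1 (cyclin E1, of S phase entry) was at 0 and 0 CPM, then 0 and 20.5 CPM, then 80.5 and 9.4 CPM, and Stmn1 (stathmin, a microtubule regulator) at 0 and 0 CPM, then 0 and 42 CPM, then 33.8 and 2.4 CPM.

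Counted over the list, 15 of the 38 genes above 0 in either group had both papain libraries above both untreated ones (39.5%), against 16.2% of all 9880 genes, and 0 had both below, against 11.8%. The 15 comprised 13 of 24 mitosis genes and Mcm3 and Mcm7 of 10 replication genes. With papain and FK506, 25 of 38 lay wholly above untreated (65.8%), against 21.0% of all genes. These were 18 of 24 mitosis genes, 5 of 9 replication genes (Mcm3, Mcm7, Pcna, Rrm1 and Rrm2), Ccne1 and Stmn1. Both comparisons share the untreated libraries. These counts are descriptions: 23 of the 38 genes (60.5%) were at 0 in both untreated libraries, as were 19.6% of all genes counted with papain, and such a gene could not lie below. Of the 15 above 0 in an untreated library, 4 lay wholly higher with papain (26.7%; 13.3% of all such genes) and 9 with FK506 as well (60%; 17.5%).

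**Figure D4:**
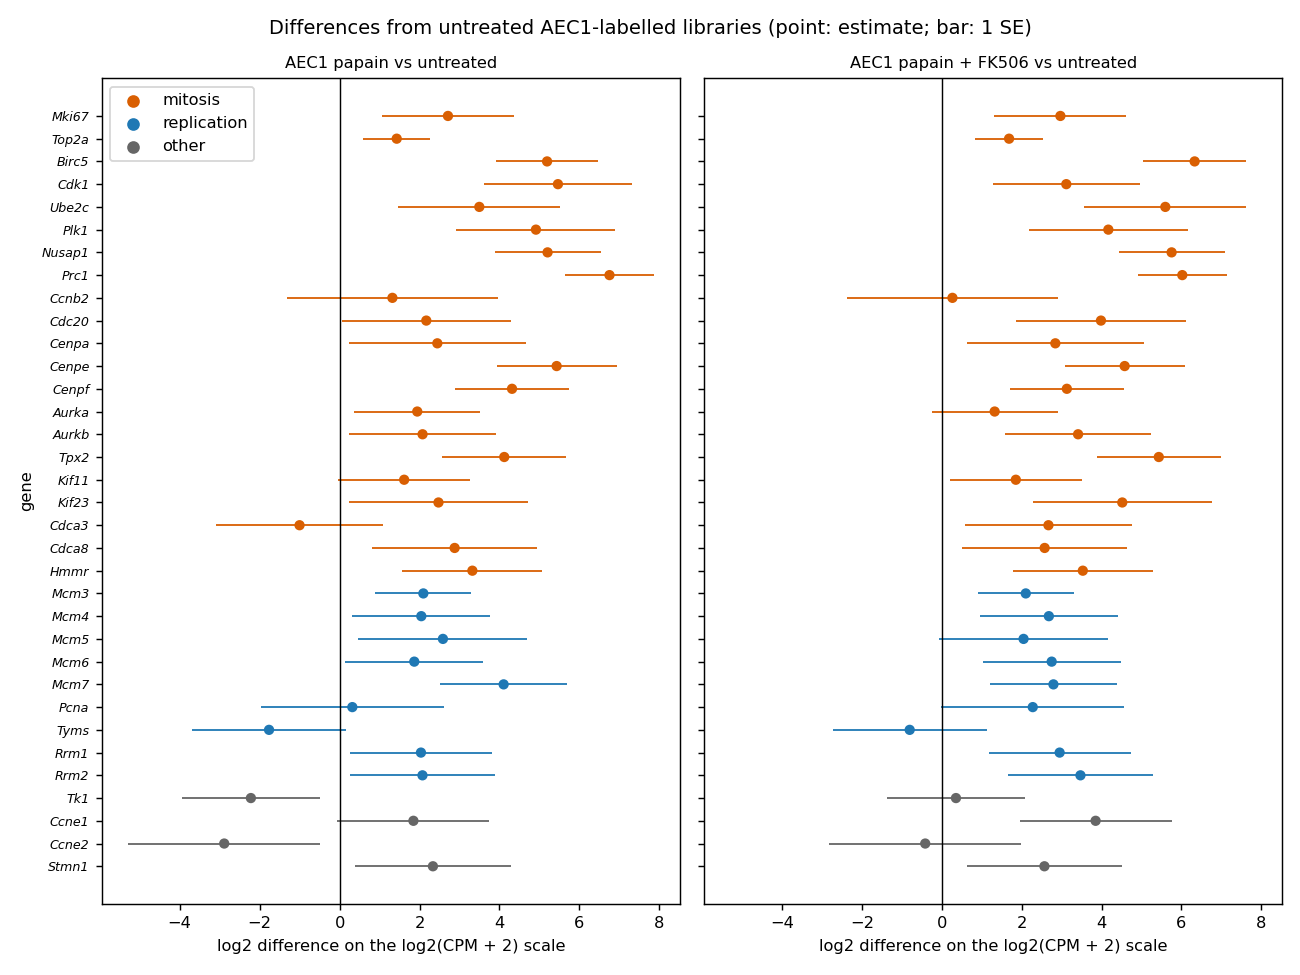
Differences of the 34 tested genes from untreated AEC1 libraries with papain (left) and papain and FK506 (right), on the log2(CPM + 2) scale, with bars of 1 standard error. Mitosis genes (orange) have a median of 2.88 and 3.41, replication genes (blue) of 2.04 and 2.68, and no gene passed the test.

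None of these differences passed the test in limma (log2(CPM + 2), genes at 10 CPM or more in at least 2 libraries, Benjamini-Hochberg over all genes tested, threshold 0.05). Of 34 cell cycle genes tested, 0 were called with papain, 0% of all 8178 genes being called, and 9 had an unadjusted p under 0.05, where 765 of all genes (9.35%) did. The smallest was for Prc1, at 6.75 (SE 1.11, limma adjusted p = 0.320), higher in 2 of 2 libraries. With papain and FK506, 0 of 34 were called, where 0.0245% of all genes were (Acta2 and Marcks). Of the 34, 6 had an unadjusted p under 0.05, where 958 of all genes (11.7%) did. Again the smallest was for Prc1, at 6.02 (SE 1.11, limma adjusted p = 0.200), higher in 2 of 2. The median difference with papain was 2.88 over 21 tested mitosis genes and 2.04 over 9 replication genes, against 0.17 over all genes. With FK506 as well it was 3.41 and 2.68 against 0.30. Of the tested genes, 15 of 21 mitosis and 2 of 9 replication genes were at 0 in both untreated libraries, against 13.7% of all tested, and a gene that passed the filter from there had to be higher in a treated group, so the medians support nothing by themselves.

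Other tools run on the reads recovered for AEC1 did call some of them. edgeR called Prc1 with papain (edgeR adjusted p = 0.0107) among 15 genes in all, and Prc1 and Birc5 with papain and FK506 among 29. DESeq2 called 8 of the 34 tested cell cycle genes with papain among 305 of all 8178 genes, and 9 among 457 with FK506 as well. Voom called 0. The 8 were Birc5, Cdk1, Cenpe, Nusap1, Plk1, Prc1, Tpx2 and Ube2c, all mitosis genes, and Kif23 was the ninth with FK506. Every cell cycle gene called by edgeR or DESeq2 was at 0 in both untreated libraries. Each passed the filter through treated libraries and could only be higher, so these calls carry the same limit as the medians.

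FK506 given with papain was compared with papain alone in AEC1. Birc5, Nusap1 (a microtubule binder of the spindle), Ccna2 (cyclin A2), Tpx2 (the activator of Aurka) and Cdca3 lay wholly above papain, 5 of 40 genes (12.5%) against 16.7% of all genes. Cdk1 and Mcm7 lay wholly below, 2 of 40 (5%) against 11% of all genes. Mcm7 was at 56.1 and 89.2 CPM with papain, then 17.5 and 51.9 CPM with FK506. Neither share stood above that of all genes, limma called 0 of 34 (0% of all genes called; 0 had an unadjusted p under 0.05), and edgeR, DESeq2 and voom called 0 of the 41. The smallest p was for Cdca3, at 3.67 on the log2 scale (SE 2.09, adjusted p = 0.902 in limma).

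In AEC2 the mitosis genes summed to 13 and 55.4 CPM in untreated libraries, to 1083 and 58.4 CPM with papain and to 1304.6 and 1173.3 CPM with papain and FK506. The replication genes summed to 47 and 81.6 CPM, to 418.2 and 30.4 CPM, and to 467 and 383.7 CPM. The low values with papain are those of replicate 2, the library that matches untreated replicate 2. Without both, the mitosis sum was 13 CPM in 1 untreated library, 1083 CPM in 1 papain library and 1238.95 CPM on average in 2 libraries with FK506 as well, and the replication sum 47, 418.2 and 425.35 CPM. With both, 6 and 8 of the 41 genes were above 0 in untreated libraries, 18 and 7 with papain, and 23 and 26 with FK506 as well.

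In the order untreated, papain, papain and FK506, Birc5 was at 0 and 0 CPM, then 0.8 and 0 CPM, then 229.8 and 129.3 CPM. Cdk1 was at 0 and 0 CPM, then 279.1 and 0 CPM, then 241.8 and 109.4 CPM. Ube2c was at 0 and 0 CPM, then 254.2 and 0 CPM, then 28.4 and 108.5 CPM. Of these 3, Birc5 was near 0 in papain replicate 1, whose Cdk1 and Ube2c were above those of both libraries with FK506.

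Top2a was at 0 and 0 CPM, then 39.6 and 0 CPM, then 103.3 and 83.7 CPM. Mki67 was at 13 and 0 CPM, then 0 and 0 CPM, then 49.4 and 49.7 CPM, and Plk1 at 0 and 0.8 CPM, then 0 and 0.8 CPM, then 90.6 and 38.1 CPM. In these 3 genes both libraries with FK506 lay above all 4 others. Aurkb (0 and 0 CPM, 42 and 0 CPM, 45.7 and 0 CPM) and Ccnb1 (73.7 CPM in FK506 replicate 2 and 0 in the other 5) were seen in few libraries.

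Among replication genes Mcm3 was at 0 in all 4 libraries without FK506 and at 85.3 and 70.4 CPM with it. Mcm5 was at 0 and 26.2 CPM, then 0 and 27.9 CPM, then 77.1 and 59.7 CPM, and Mcm6 at 22 and 0 CPM, then 222.3 and 0 CPM, then 83.8 and 53.9 CPM. Mcm3 and Mcm5 separated papain with FK506 from the other groups and Mcm6 separated it only from untreated. Pcna was at 0 and 53.1 CPM, 0 and 0 CPM, 1.5 and 0 CPM; Tyms at 9 and 0 CPM, 0 and 0 CPM, 50.9 and 0 CPM; and Mcm2 and Rrm2 were at 0 in all 6.

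Tk1 was at 1 and 0 CPM, then 42.8 and 0 CPM, then 0 and 26.5 CPM. Ccne1 was at 0 and 7.7 CPM, then 0 and 7.4 CPM, then 0 and 0 CPM. Stmn1 was at 2 and 23.9 CPM, then 23.3 and 22.2 CPM, then 53.9 and 62.1 CPM, higher with FK506 than in all other AEC2 libraries.

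Against untreated, 15 of 34 genes lay wholly higher with papain and FK506 (44.1%), where 15.6% of all 8791 genes did, and 0 lay wholly lower (8.84%). Of them 9 were mitosis genes and 5 were Mcm3 to Mcm7. Against papain, 10 of 34 lay wholly higher (29.4%; 14.1% of all genes), and with papain against untreated 1 of 25 did (Prc1; 11.8%). At 0 in both untreated libraries were 22 of the 34 (18.8% of all genes). Without the 2 alike libraries, 16 of 32 lay wholly higher with papain and FK506 than in the 1 untreated library (50%; 30.6% of all genes) and 0 lower (24%). In that untreated library only 6 cell cycle genes were above 0. The others could not lie lower, and lay wholly higher once above 0 in both libraries with FK506. These 2 counts are therefore descriptions. Against the 1 papain library 10 of 32 lay higher (31.2%; 29.3%) and 9 lower (28.1%; 25.7%), so the excess over papain was not there without them. Limma called 0 of 22 tested cell cycle genes in each of the 3 comparisons, where 0% of all 6719 genes were called. At an unadjusted p under 0.05 there were 5 (Birc5, Mcm3, Cdk1, Plk1 and Cdc20) with papain and FK506 against untreated, where 303 of all genes (4.51%) were. Against papain there were 3 (Mcm3, Birc5 and Plk1), where 279 (4.15%) were. Papain against untreated gave 0, where 12 (0.179%) were. The smallest p was for Birc5, at 6.37 (SE 2.24, limma adjusted p = 0.909), higher in 2 of 2 libraries. On recovered reads DESeq2 called Birc5 against papain (DESeq2 adjusted p = 0.00196), while edgeR and voom called 0 cell cycle genes. Birc5 was at 0.8 and 0 CPM with papain, passed the filter only through the libraries with FK506 and could hardly be lower there. These runs held 1 untreated library, of the alike pair, so their results against untreated are left out. Without the 2 alike libraries limma called 0 of all 5029 genes, and Cdk1 against untreated stood at 7.07 with papain and at 6.30 with FK506 as well. In that fit untreated and papain hold 1 library each and the spread comes from the 2 libraries with FK506, so its count of 0 says little.

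In ILC2 the mitosis genes summed to 63, 212 and 318 CPM in untreated libraries, to 534, 415 and 658 CPM with papain and to 229, 93 and 176 CPM with papain and FK506. Papain libraries lay wholly above both other groups, at 2.71 times the untreated mean, and the sum with FK506 was 0.31 times the papain mean. Replicate 3 of each ILC2 group carries a different code in its file name from replicates 1 and 2. The order held within both codes: 658 CPM with papain against 318 and 176 CPM in replicate 3, and 534 and 415 CPM against 63, 212, 229 and 93 CPM in the others. The replication genes summed to 128, 171 and 3 CPM, to 312, 234 and 230 CPM and to 314, 215 and 142 CPM, so the papain and FK506 groups overlapped (0.86 times). Replicate 3 with papain owed its 230 CPM to Mcm3 alone. The replicate 3 libraries also held markers of other cells. AEC2 markers summed there to 4695 (untreated), 6629 (papain) and 3698 CPM (papain and FK506), against 0 to 548 CPM in replicates 1 and 2. Untreated replicate 3, with the highest untreated mitosis sum, held airway markers at 37948 CPM, fibroblast markers at 3603 CPM, neutrophil markers at 2756 CPM and ILC2 markers at 1644 CPM. Replicate 3 with papain and FK506 held macrophage markers at 9620 CPM and ILC2 markers at 89 CPM, where the other 7 ILC2 libraries had 3009 to 4128 CPM of ILC2 markers. The part of these cells in the sums was not tested, and the mitosis sums of the other 2 libraries with FK506 were 229 and 93 CPM.

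In the order untreated, papain, papain and FK506, Ube2c in ILC2 was at 0 in all 3, then 73, 13 and 98 CPM, then 0, 0 and 9 CPM. Plk1 was at 0 in the untreated ones, then at 37, 47 and 122 CPM, then at 156, 0 and 9 CPM. Top2a was at 22, 96 and 60 CPM, then 97, 215 and 1 CPM, then 70, 27 and 6 CPM. Ube2c separated papain from both other groups, Plk1 only from untreated, and Top2a from neither.

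Mki67 was at 25, 1 and 0 CPM, then 41, 36 and 0 CPM, then 0 in all 3. Cdk1 was at 0, 14 and 0 CPM, then 15, 0 and 0 CPM, then 0, 24 and 37 CPM, and Birc5 at 0 in all 3, then 19, 20 and 0 CPM, then 0, 7 and 0 CPM. These 3 genes overlapped between the groups. Aurkb and Ccnb1 were at 0 in all 9 ILC2 libraries.

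Mcm3 was at 14, 22 and 0 CPM, then 48, 44 and 230 CPM, then 0, 57 and 16 CPM, wholly above untreated with papain. Mcm5 was at 18, 4 and 0 CPM, then 71, 33 and 0 CPM, then 119, 19 and 51 CPM, and Mcm2 at 5, 10 and 0 CPM, then 56, 22 and 0 CPM, then 131, 90 and 0 CPM. Mcm6 was at 6, 66 and 0 CPM, then 86, 15 and 0 CPM, then 27, 6 and 0 CPM. Mcm5 with FK506 lay above untreated, and Mcm2 and Mcm6 overlapped.

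Pcna was at 54, 23 and 0 CPM, then 0, 22 and 0 CPM, then 1, 5 and 21 CPM. Tyms was at 3, 0 and 0 CPM, then 7, 0 and 0 CPM, then 0 in all 3, and Rrm2 was above 0 (1 CPM) in papain replicate 1 alone. Tk1 was at 0, 49 and 0 CPM, then 22, 49 and 0 CPM, then 59, 0 and 8 CPM. Ccne1 was at 0 in untreated, then at 29, 0 and 0 CPM, then at 0, 1 and 18 CPM, and Stmn1 at 10, 41 and 0 CPM, then 20, 16 and 0 CPM, then 0, 0 and 36 CPM. None of these separated the groups.

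By count, 3 of 34 genes lay wholly higher with papain (Ube2c, Plk1 and Mcm3; 8.82%), where 2.77% of all 9752 genes did, and 3 of 35 lay wholly lower with FK506 than with papain (Ube2c, Cenpf and Kif23; 8.57%), where 1.87% did; 0 of 35 lay wholly higher there (2.7% of all genes). Cenpf is a kinetochore protein and Kif23 a kinesin of the midzone, and both were at 0 in all libraries with FK506. Of the 34 genes, 10 were at 0 in all untreated libraries (29.4%, against 10.5% of all genes) and could not lie below. Ube2c and Plk1 were among these. Of the 24 above 0 in an untreated library, 1 lay wholly higher with papain (4.2%, against 2.9% of all such genes). Limma called 0 of 19 tested genes with papain (0% of all 6271 genes called; 2 and 237 at an unadjusted p under 0.05). It called 0 of 19 with FK506 against papain (0.0159% of all genes called; 2 and 258 at an unadjusted p under 0.05). Ube2c differed by 4.49 on the log2 scale with papain (SE 1.59, adjusted p = 0.985 in limma), higher in 3 of 3, and by -3.66 with FK506 against papain (SE 1.59, adjusted p = 0.930), lower in 3 of 3. Over 10 tested mitosis genes the median was 0.78 with papain against -0.21 for all genes, and -2.11 with FK506 against papain, where it was 0.15 for all genes. Replication genes gave 1.19 and 0.77. Of the 10 mitosis genes, 2 (20%) were at 0 in all untreated libraries, against 1.59% of all tested genes. A gene could pass the filter through the 3 papain libraries alone, and both comparisons use those libraries. The medians therefore support nothing by themselves. For papain and FK506 against untreated, Mcm5 lay wholly higher and Kif23 wholly lower (1 of 33 each, 3.03%; 3.30% and 2.15% of all genes), and limma called 0 of 19 (0% of all genes called; 0 and 244 at an unadjusted p under 0.05).

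In the basophil libraries the mitosis genes summed to 136.9, 177.4 and 106 CPM with papain and to 409.7, 348.5 and 596.4 CPM with papain and FK506, which was 3.22 times the papain mean with no overlap. The replication genes summed to 90.6, 249.1 and 245.4 CPM and to 74.6, 337.6 and 115.1 CPM, 0.90 times, and overlapped. The untreated library, with 2002 genes above 0, had 2 of the 41 above 0: Ube2c at 267.5 CPM and Tk1 at 581.2 CPM. AEC2 markers summed to 867 to 1677 CPM with papain and to 10807, 8384 and 2355 CPM with FK506 as well, and fibroblast markers to 254 to 992 CPM and to 2137 to 3180 CPM. Macrophage markers ran from 7618 to 14554 CPM with papain and from 3720 to 9553 CPM with FK506. ILC2 markers summed to 31.4 to 97.8 CPM with papain and to 1499.5, 189.8 and 119.5 CPM with FK506 as well. The part of these markers in the result was not tested.

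Cdk1 was at 0 in all 3 papain libraries and at 4.8, 60.7 and 43.4 CPM with papain and FK506. Mki67 was at 14.4, 4.8 and 13.6 CPM, then 12.2, 11 and 21.5 CPM, and Top2a at 17.3, 0 and 35.8 CPM, then 0, 99.4 and 14.2 CPM. Cdk1 did not overlap, and Mki67 and Top2a did. Kif11, the motor that holds the spindle poles apart, was at 0 in the 3 papain libraries and at 11.3, 1.5 and 49.1 CPM with FK506, and Cdca3, at 0, 2.3 and 0 CPM with papain, was at 56.7, 45.7 and 4.5 CPM.

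Birc5 was at 7.4, 10 and 3.1 CPM, then 0, 0 and 15.4 CPM. Ube2c was at 1, 0.3 and 19.1 CPM, then 0, 0 and 29.2 CPM, and Plk1 at 0, 12.6 and 2.4 CPM, then 36.7, 52.6 and 0 CPM. Those 3 overlapped. Ccnb1 was at 0, 0.3 and 0 CPM, then 2.6, 0 and 32.8 CPM, and Aurkb was above 0 in FK506 replicate 7 alone (9.6 CPM).

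Mcm2 was at 0, 34.6 and 24.5 CPM, then 5.7, 29.6 and 0 CPM. Mcm3 was at 10.6, 66.2 and 15.7 CPM, then 0, 21.9 and 35.7 CPM, and Mcm5 at 1.3, 0 and 74.7 CPM, then 0, 38 and 39.3 CPM. Mcm6 was at 0, 22.3 and 0 CPM, then 0, 81.9 and 2.8 CPM. All 4 helicase genes overlapped.

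Pcna was at 0.3, 94 and 47.7 CPM, then 1.7, 44.6 and 1.2 CPM. Tyms was above 0 in FK506 replicate 8 alone (2.9 CPM) and Rrm2 in replicate 7 alone (34.9 CPM), while Ccne1 was at 0 in all 7. Tk1 was at 0, 1.3 and 26.9 CPM, then 0, 20.5 and 4.5 CPM, and Stmn1 at 0.6, 15.2 and 0.7 CPM, then 0.9, 7.3 and 4.5 CPM. Again the groups overlapped.

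With FK506 against papain, 3 of 36 genes lay wholly higher (Cdk1, Kif11 and Cdca3, 8.33%), where 4.48% of all 10719 genes did. At 0 in all papain libraries were 8 of the 36 (22.2%, against 15.2% of all genes), Cdk1 and Kif11 among them. Such a gene could not lie below. Of the 28 above 0 in a papain library, 1 lay wholly higher (3.6%, against 3.8% of all such genes). Limma called 0 of 16 (0% of all 5853 genes called, 0 and 351 at an unadjusted p under 0.05). The mitosis gene with the smallest p was Plk1, at 1.64 (SE 1.67, limma adjusted p = 0.882). Against the single untreated library, limma called 0 of 16 with papain and 0 of 16 with FK506 as well, where 23.1% and 23.3% of all genes were called and the median over all genes tested was 3.05 and 3.08. Tk1 had the smallest p, at -6.32 (SE 2.36, limma adjusted p = 0.0662) with papain, lower in 3 of 3. Tk1 passed the threshold when FK506 replicate 7 was left out of the fit (-6.32, limma adjusted p = 0.0296). By overlap, 7 of 28 genes with papain lay above the untreated value (25%; 37.1% of all genes) and Ube2c and Tk1 below it (7.14%; 10.7%), and 9 of 34 (26.5%; 35.8%) and the same pair (5.88%; 10.2%) with FK506 as well. The untreated group is 1 library and was assumed to vary like the other groups.

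**Figure D5:**
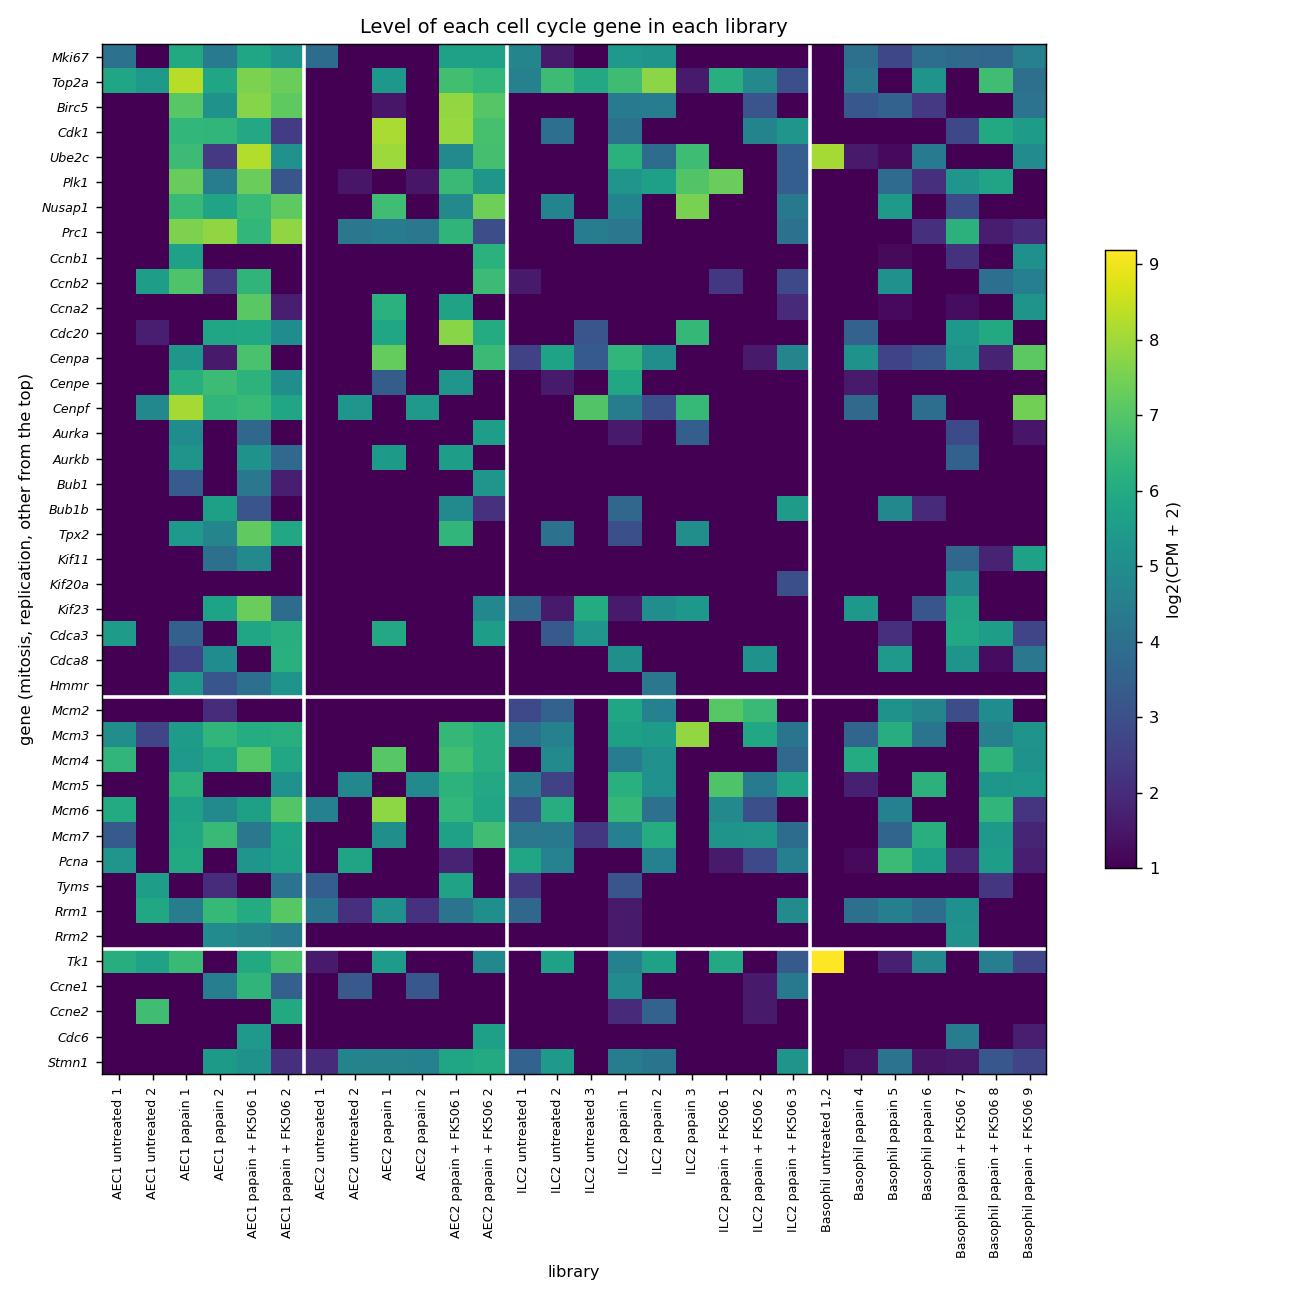
log2(CPM + 2) of each of the 41 genes (rows; 26 mitosis, 10 replication and 5 other genes, split by white lines) in each of the 28 libraries (columns). Treated AEC1 libraries have 28 to 34 genes above 0 and untreated ones 9, while AEC2 untreated 2 and papain 2 look alike.

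Between cell types, AEC2 was set against AEC1 with treatment as a covariate. Top2a was the member called, at 0 to 103.3 CPM in AEC2 and 41.4 to 312.4 CPM in AEC1, and was lower in AEC2 by 3.10 on the log2 scale (-3.10, SE 0.93, limma adjusted p = 0.0270). That is 1 of 17 tested, where 19.9% of all 5273 genes were called (8.15% higher and 11.7% lower in AEC2). Without the 2 alike AEC2 libraries the difference was -2.15 (limma adjusted p = 0.0743). The call was also lost without AEC1 untreated replicate 1 (limma adjusted p = 0.0689) or 2 (0.0738) and without AEC1 papain replicate 1 (0.120) or 2 (0.0513). Cenpf was called without AEC2 untreated replicate 2 (limma adjusted p = 0.0266) or AEC1 untreated replicate 1 (0.0444). Tk1 was called without AEC2 papain replicate 1 (limma adjusted p = 0.0346) or AEC1 papain replicate 2 (0.0491). Fits with 1 library left out called 598 to 954 of all genes. Over all alternatives the adjusted p of Top2a ran from 0.0141 to 0.271. Fibroblast markers summed to 259 to 815 CPM in AEC2 and 6095 to 15766 CPM in AEC1, and whether they had a part was not tested. For ILC2 replicate 3 against basophils, which share a file code, limma called 0 of 22 (0.0147% of all 6810 genes called; 0 and 453 at an unadjusted p under 0.05), with Nusap1 at 2.79 (SE 1.46, limma adjusted p = 0.776).

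Wider lists of cell cycle genes were counted in the same way. In AEC1 with papain, 33 of 39 other tested mitosis genes (condensins, kinetochore, kinesin and cytokinesis genes) had a positive difference. Their median was 2.10 against 0.17 for all genes. Of the 39, 0 were called and 5 had an unadjusted p under 0.05, where 9.35% of all genes did. Of 56 such genes listed in all tables, 17 and 18 were above 0 in untreated AEC1 libraries, 40 and 30 with papain and 38 and 33 with FK506 as well. Among other replication genes (polymerases, clamp loaders, origin factors) 23 of 33 were positive, with a median of 0.88, and with FK506 as well 28 of 33 (2.15). At 0 in both untreated libraries were 16 of the 39 and 12 of the 33, so part of the positive signs follows from the filter. Of the genes of G1 control and its inhibitors, 8 of 24 were positive with papain, with a median of -0.57. With FK506 as well 12 of 24 were positive, with 0.01. Only 4 of these 24 (16.7%) were at 0 in both untreated libraries, against 41% and 36.4% in the other lists, so the lists are not alike in this.

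In AEC2 with papain and FK506 against untreated, 15 of 21 other mitosis genes were positive (median 2.00 against -0.09 for all genes) and 14 of 18 other replication genes (1.83), with 8 of 18 G1 genes (-0.21); 11 of the 21, 4 of the 18 and 0 of the 18 were at 0 in both untreated libraries. Without the 2 alike libraries it was 13 of 19 (2.15 against 0.23), 12 of 17 (1.16) and 8 of 12 (0.80). With FK506 against papain, 13 of 21 other mitosis genes (0.59 against 0.02 for all genes) and 13 of 18 other replication genes (1.32) were positive. Without the 2 alike libraries these were 8 of 19 (-1.62 against 0.39 for all genes) and 6 of 17 (-0.47). In ILC2 the other mitosis genes showed 8 of 16 positive with papain (0.04) and 9 of 16 with FK506 against papain (0.10), against 7 of 10 and 1 of 10 in the mitosis genes above. The other replication genes showed 10 of 21 (-0.10) and 6 of 21 (-0.50), where the replication genes above had medians of 1.19 and 0.77. In basophils with FK506 against papain, 11 of 17 were positive (0.32). Limma called 0 genes of the 3 lists in all ILC2, AEC1 and AEC2 treatment comparisons and in basophils with FK506 against papain.

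Calls in these lists came from AEC2 against AEC1 and from the single untreated basophil library. In AEC2 against AEC1 they were 2 of 14 other mitosis genes (14.3%), 1 of 14 other replication genes (7.14%) and 1 of 16 G1 genes (6.25%), no larger a share than the 19.9% of all genes. Smc2, a condensin gene, was at 0 in 5 AEC2 libraries and at 37.3 CPM in FK506 replicate 2, and in AEC1 it stood at 19.1 and 0 CPM, then 42.4 and 137.4 CPM, then 260.2 and 181.7 CPM. It was lower in AEC2 (-3.82 on the log2 scale, SE 1.05, limma adjusted p = 0.0174) and also without the 2 alike libraries (-3.93, limma adjusted p = 0.0376). Smc2 passed the filter of 6 libraries mostly through AEC1 and with none to spare. With 1 library left out it was tested in only 6 of 12 fits (-4.51 to -3.24). The condensin gene Smc4 was at 0 and 0 CPM, 50.5 and 0 CPM, and 113.8 and 178.1 CPM in AEC2, and at 119 to 447.9 CPM in AEC1. Its difference was -3.88 (SE 0.97, limma adjusted p = 0.00945), and -2.74 without the alike libraries (limma adjusted p = 0.0288).

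Chaf1a, a histone chaperone of replication, was at 50.2 to 93.2 CPM in every AEC1 library, at 18 CPM in AEC2 FK506 replicate 1 and at 0 in the other 5 AEC2 libraries, so the cell types did not overlap. The difference was -4.45 (SE 0.90, limma adjusted p = 0.00193), and -4.27 without the alike libraries (limma adjusted p = 0.0115). The AEC1 libraries alone were enough for Chaf1a to pass the filter. Ccnd1 (cyclin D1) stood at 157.8 to 686.1 CPM in AEC2 and at 62.5 to 322 CPM in AEC1, which overlapped. It was called higher in AEC2 (1.36, SE 0.46, limma adjusted p = 0.0481), a call lost without the alike libraries (1.12, limma adjusted p = 0.145) and without any of 8 single libraries: AEC2 untreated 2, papain 2 and both with FK506, and AEC1 untreated 1, papain 2 and both with FK506 (limma adjusted p = 0.0725 to 0.152). With edgeR on recovered reads none of the 4 passed (edgeR adjusted p = 0.0574 to 0.179).

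Against untreated basophils, 5 genes of the wider lists were called higher with papain, and 6 higher and 2 lower with FK506 as well (21% of all genes were called higher and 2.29% lower with FK506). Both comparisons rest on the same single untreated library, which has no spread of its own, and the values are given as a description. Btg2, an antiproliferative gene, was at 0 CPM in it, then 700.4, 552.9 and 354.9 CPM with papain, then 382.3, 453.2 and 356 CPM with FK506 as well. Tuba1b, a tubulin, was at 0.5 CPM, then 550, 499.9 and 758.2 CPM, then 685.6, 793.1 and 744 CPM. Rb1, the retinoblastoma gene that holds cells in G1, was at 744.3 CPM in it, then at 37.8, 62.4 and 1.7 CPM, then at 2.2, 0.4 and 0 CPM. The other called genes were Lmnb1, Gadd45b and Ccnd3 in both, and Ccnd2 (higher) and Pttg1 (lower) with FK506 as well. With FK506 against papain limma called 0 genes of the lists. At an unadjusted p under 0.05, 3 were higher and 1 lower, where 351 of all genes (6%) passed in either direction.

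Some genes carry a limit of counting. Exons of 11 of the 41 overlap a gene on the other strand in the GENCODE annotation of GRCm38, and whether the counting used strand is not stated in those sources that were read. They include Ube2c (with Tnnc2), Plk1 (Gm44985), Nusap1 (Oip5), Prc1 (Rccd1), Cdc20 (Elovl1), Mcm7 (Ap4m1 and Cops6) and Tk1 (Afmid). In that annotation Prc1 lies on chromosome 7 at 80294450 to 80316259, Birc5 on chromosome 11 at 117849251 to 117855743, Cdk1 on chromosome 10 at 69335146 to 69352938, Ube2c on chromosome 2 at 164769898 to 164778822 and Top2a on chromosome 11 at 98992943 to 99024189. The listed pseudogene copies of Ccnb1 and Stmn1 were at 0 in all libraries and that of Tyms at no more than 5.5 CPM. Over all 28 libraries a cell cycle gene was above 0 in 2 (Kif20a) to 22 (Top2a), with a median of 12.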

How the data were processed

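Per the labels' protocols, a Lexogen kit made 3' end libraries from sorted lung cells. STAR 2.7.0c and featureCounts 1.6.0 appear in the submitters' processing notes, as do mm10 and GRCm38.p6, and the notes give no role for them. The authors deposited CPM for 18 libraries. For the 9 ILC2 libraries and AEC2 untreated replicate 1 the deposited values are whole numbers on the CPM scale, treated as a score; whether the authors rounded CPM to make them is not given. What the values were divided by, the strand setting and the handling of multiply matching reads are not given in the sources used here. The depth of the rounded and basophil libraries is taken as unknown. For 11 AEC libraries, 100% of values under 25 CPM were whole reads within 0.1 read, and those reads were recovered.

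The 41 genes and the wider lists were chosen with earlier results of these data known. Values were scaled by TMM factors (edgeR 4.0.16), and log2(CPM + 2) was fitted with limma 3.58.1 (trend) in R 4.3.3, two-sided, with all libraries of a cell type in 1 fit and a term for the file code in ILC2. Genes needed 10 CPM in 2 (AEC), 3 (ILC2, basophils, ILC2 against basophils) or 6 (AEC2 against AEC1) libraries. Adjusted p is Benjamini-Hochberg over all genes tested. edgeR's quasi-likelihood test, DESeq2 1.42.0 and voom were run on recovered reads as alternatives, without AEC2 untreated replicate 1. The fits were tested on simulated data. Values in every library are given for 18 genes fixed by name and for the called gene of the 41, and other genes by ranges, counts or chosen values. Further genes, such as Prc1, Nusap1, Mcm7, Cenpf, Kif11, Kif23 and Cdca3, were named after their values were seen. A count of groups that do not overlap uses genes above 0 in any library compared.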

Additional observations from a re-analysis of the deposited data

Results flagged for a closer look

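Cell types moved in opposite directions with FK506 for a few genes and sums, every library of one group moving one way and every library of the other the opposite way. None of these differences between cell types was tested, and the differences are of mean CPM. The listed values sum to 519768 to 636598 in ILC2 and to 612434 to 672357 in basophils, against 986819 to 992527 in AEC libraries, so CPM of these cell types are not on 1 scale and the size of a difference between them is not to be read; the direction in each was the same after division by the listed sum. With papain and FK506 against papain, the summed mitosis genes differed by -369.67 CPM in ILC2 and by 311.43 CPM in basophils, so ILC2 minus basophils was -681.1 CPM. The AEC2 difference was 668.25 CPM, so ILC2 minus AEC2 was -1037.92 CPM, and that value rests on AEC2 papain replicate 2, which matches an untreated library. Without that library the AEC2 difference was 155.95 CPM. Cdk1 differed by 36.3 CPM in basophils and by -51.3 CPM in AEC1, a difference of 87.6 CPM. Mcm7 differed by -37.95 CPM in AEC1 and by 58.45 CPM in AEC2, so AEC1 minus AEC2 was -96.4 CPM, and the AEC2 difference was 42.5 CPM without papain replicate 2. With papain and FK506 against untreated, Kif23 differed by -25 CPM in ILC2 and by 84.7 CPM in AEC1, so ILC2 minus AEC1 was -109.7 CPM. Basophil FK506 libraries also held more AEC2, fibroblast and ILC2 markers, as given above.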

How the results depend on the processing

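Calls of cell cycle genes depended on the tool and on few libraries; the cause was not tested. With the tools on recovered reads, edgeR called 1 and 2 and DESeq2 8 and 9 in AEC1 with papain and with papain and FK506 against untreated. In AEC2, DESeq2 called 1 with papain and FK506 against papain, among 67 of all genes. Its AEC2 count against untreated rests on 1 untreated library and is left out. In basophils against untreated, papain gave 1 with 5 CPM added, 1 with CPM as deposited and 2 with only the groups compared, and 0 to 1 with 1 library left out. Papain and FK506 gave 1 with 5 CPM added and 1 with only the groups compared. For AEC2 against AEC1 there were 0 with edgeR, 3 with DESeq2 and 0 with voom, where 531, 1106 and 917 of all 4977 genes were called. Without the 2 alike libraries (an alternative chosen after seeing the data) there were 0, where 890 of all 4321 genes (20.6%) were called. With 1 library left out there were 0 to 2, where 598 to 954 of all genes were called. Counts of all genes called moved too, in AEC1 from 0 to 15 (edgeR) and 305 (DESeq2) with papain and from 2 to 29 and 457 with FK506 as well, and in basophils from 1353 to 2553 and 1366 to 2335 with only the groups compared. Same-numbered libraries deviated together at r = -0.0205 to 0.0174 in AEC1, at -0.0102 to 0.447 in AEC2 (0.447 between untreated and papain, which hold the alike pair) and at 0.0498 to 0.239 in ILC2, where the 3 values of replicate 3, which shares a file code, were 0.158 to 0.239 and 12 of 18 best matches were of the own number. Not every ILC2 pair passed 0.1, so the numbers were not taken to pair libraries. With the title number as a replicate block, 0 cell cycle genes were called in all 9 ILC2, AEC1 and AEC2 comparisons, and the count of all genes was 0 to 2. Basophil libraries carry no shared numbers. Scaling moved the median of all genes, in ILC2 with papain from -0.21 to -0.05 with CPM as deposited. Divided by the sum over listed genes, mean mitosis sums were 364.25, 875.47 and 265.34 CPM in ILC2 and 436.78, 215.31 and 703.38 CPM in basophils (untreated, papain, papain and FK506), replication sums 188.96, 422.74 and 361.29 CPM in ILC2 and 301.67 CPM in basophils with papain, so the order of groups held. Without Top2a the mitosis sum was 65.45 CPM in untreated AEC1 and 1145.45 CPM in AEC2 with FK506, and without Mcm3 the replication sum was 299.1 CPM in AEC1 with papain, 347.5 CPM in AEC2 with FK506 and 151.33 CPM in ILC2 with papain. Most other counts of cell cycle genes were 0 under each setting, and in groups of 2 or 3 libraries such a 0 says nothing about stability. Among AEC reads, zeros beside 20 to 100 CPM and the chi-square values given above exceed counting error; the cause was not tested.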
